A study of Rattus norvegicus with 12 samples.

Results

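The genes of the proteasome, the cell's main protease for ubiquitin-tagged proteins, were followed in rat Schwann cells grown with macrophages or alone. Members were the genes whose symbol begins with Psma, Psmb, Psmc, Psmd, Psme, Psmf or Psmg and a digit, apart from the immunoproteasome genes Psmb8, Psmb9 and Psmb10, and which had a count in all 12 libraries. Of 48 matching symbols, 3 were excluded by name. Of the 45 left, Psma8, a testis form, had no count, and Psmb11, a thymus form, had 1 count in 1 library. This gave 43 members out of 30957 annotated genes, and all 43 passed the filter on low counts. One of them, Psmc3ip, carries a proteasome-like symbol but encodes a cofactor of meiotic recombination, so 42 members are proteasome genes in function.

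The proteasome is a barrel-shaped core particle (20S in the plots) capped by regulatory particles (19S). In the core, outer rings of alpha subunits gate the entry and inner rings of beta subunits hold the proteolytic sites, while the cap carries a ring of ATPases that unfold the substrate and non-ATPase subunits that bind ubiquitin chains and remove them. The genes are commonly regulated together, and the transcription factor NFE2L1 raises them when proteasome activity falls short.

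The study used 4 groups of 3 libraries of messenger RNA. In the MiaTAM group, the Schwann cells were co-cultured with tumour-associated macrophages (TAM) that had been induced by supernatant of MIA PaCa-2, a human pancreatic cancer line. The BxTAM group had macrophages induced in the same way by BxPC-3, a second human pancreatic cancer line, and the MDM group had monocyte-derived macrophages with no such induction named. The last group was the Schwann cells alone, whose titles name them as Rsc96, a rat Schwann cell line, while their column headers write HSC96. The MDM libraries are titled PBMC, and their treatment label, untreated, is the one that the cells alone also carry, so the MDM group was taken from the source label, which names the co-culture. The labels give rat as the organism throughout, while the sources used here name neither the species of the macrophages nor the format and length of the co-culture. Nothing in the labels ties the libraries of a group to separate cultures, so p-values measure the spread between libraries only, and this spread may be technical.

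Libraries held 16555215 to 21506669 counts, and 12360 genes were tested. Levels are in CPM, edgeR's scaled-count unit, in which a gene's count is divided by the TMM-scaled total of its library. Of the Schwann cell markers, Sox2, Pmp22 and Erbb3 were present in every group, but the lineage factor Sox10 had a single count in 1 library, Cdh19 had none and S100b stayed under 0.5 CPM. Of 26 macrophage markers, 19 were under 1 CPM in every group and 4 (Tyrobp, C1qa, Marco and Trem2) were at 0 in all libraries. Their summed level was 67.6 to 71.7 CPM in MiaTAM, 61.9 to 64.1 CPM in BxTAM and 64.3 to 69.7 CPM in MDM co-cultures, against 29.2 to 32.3 CPM in cells alone. Of the 8 markers tested, 6 were called higher and 0 lower than in cells alone in each co-culture (edgeR, adjusted p under 0.05), where 31.4% of all tested genes were called higher in MiaTAM, 30% in BxTAM and 32% in MDM. These markers move with the contrast used below, and their part in the proteasome results was not tested.

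Proteasome transcripts were lower in every kind of co-culture than in cells alone. The 43 members together had 5234, 5069 and 5174 CPM in MiaTAM co-cultures, 4909.7, 4830.2 and 4858 CPM in BxTAM co-cultures and 4594, 4565 and 4698 CPM in MDM co-cultures, against 6383, 6392 and 6465 CPM in cells alone. All co-culture libraries lay below all libraries of cells alone, and the MiaTAM libraries lay above those of the other co-cultures, with BxTAM above MDM. As group means these were 5159 ± 83.3 CPM in MiaTAM, 4866 ± 40.3 CPM in BxTAM and 4619 ± 69.8 CPM in MDM co-cultures, against 6413 ± 44.8 CPM in cells alone (SD, n = 3 each). The members took 0.516% of scaled counts in MiaTAM, 0.487% in BxTAM and 0.462% in MDM co-cultures, against 0.641% in cells alone. In bulk RNA, fewer cells of a type and less RNA per cell cannot be told apart.

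A gene was called when its Benjamini-Hochberg adjusted p from edgeR's quasi-likelihood test was under 0.05 over all 12360 genes. Against cells alone, 34 of 43 members were lower and 2 higher in MiaTAM co-cultures, where 33.7% of all tested genes were called lower and 31.4% higher, 65.1% in either direction. In BxTAM co-cultures 37 were lower and 1 higher, beside 30.9% and 30% of all genes, 60.9% in either direction. In MDM co-cultures 37 were lower and 1 higher, beside 33.1% and 32% of all genes, 65.1% in either direction. The median member changed by -0.30 on the log2 scale in MiaTAM, -0.38 in BxTAM and -0.49 in MDM co-cultures. The median of all tested genes lay within 0.009 of 0 in each, a position that TMM scaling favours by design. These 3 comparisons share the libraries of cells alone.

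Few members changed by as much as 2-fold. That size was reached by 1 member in MiaTAM co-cultures and 1 in BxTAM co-cultures, Psmc3ip in both, and by Psmc3ip and Psmc5 in MDM co-cultures. The libraries of 35 members did not overlap between MiaTAM co-cultures and cells alone, beside 67.2% of all tested genes. The count was 39 members for BxTAM, beside 65.9% of genes, and 40 for MDM, beside 68.9%. The 2 higher calls in MiaTAM were Psmd10 and Psmb7, and the count is 1, with Psmb7 lost, when library 1 or 2 of cells alone, any MDM library, BxTAM library 3 or MiaTAM library 2 is left out.

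**Figure D1:**
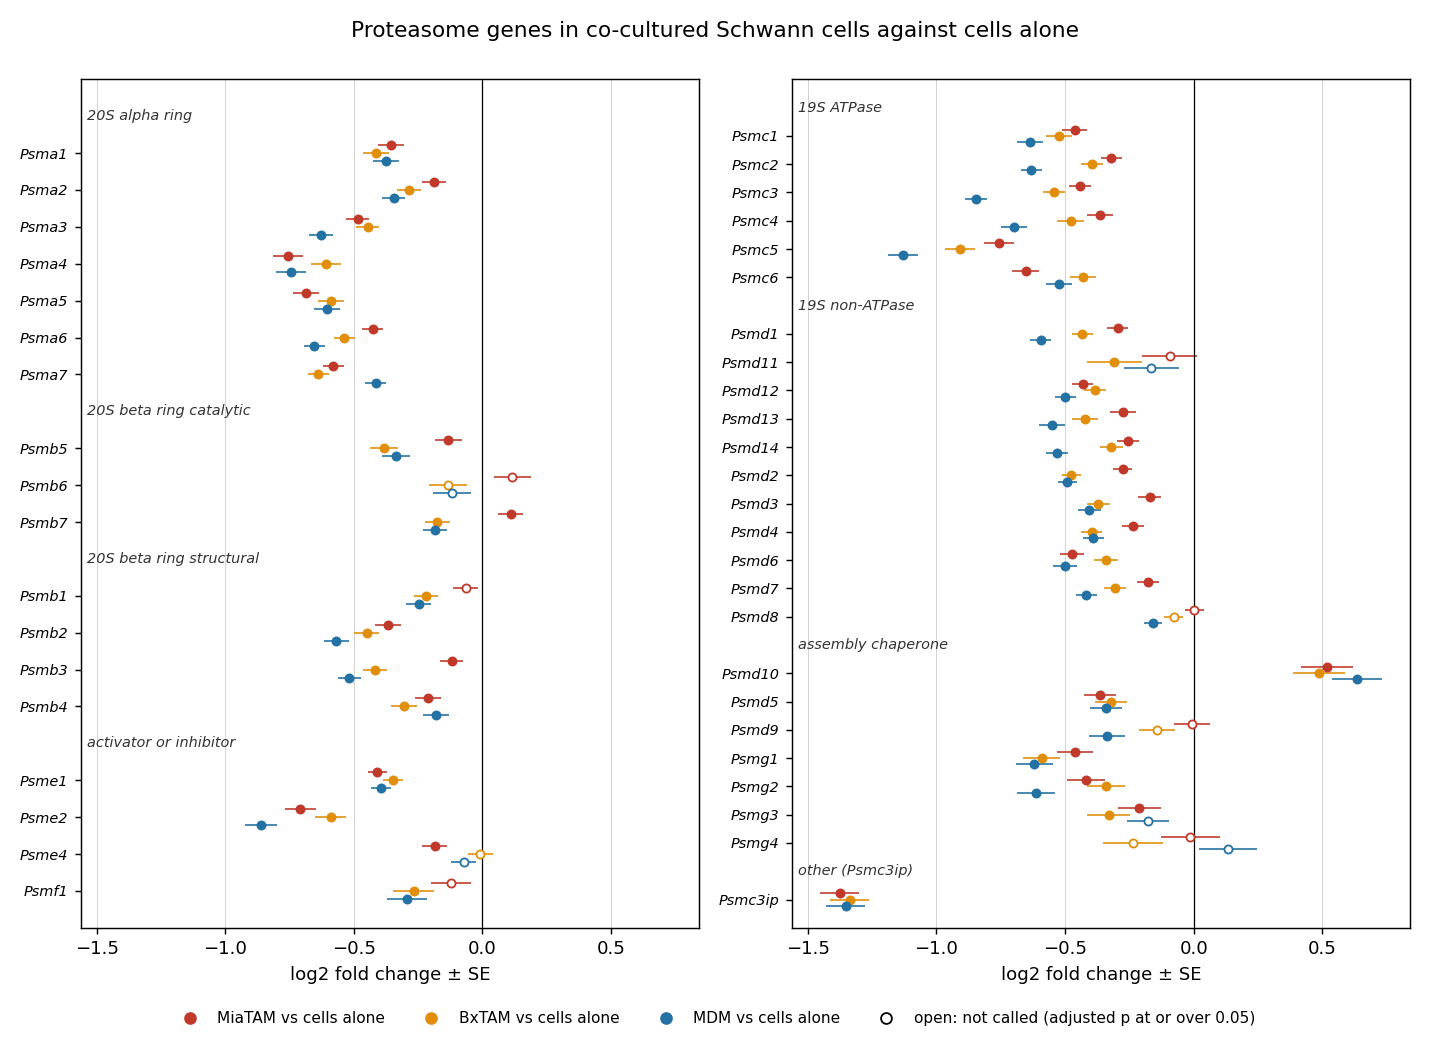
Log2 fold change of each member in MiaTAM, BxTAM and MDM co-cultures against cells alone, as points with lines of 1 SE from edgeR, by role (n = 3 libraries each), with open points for members not called. Most points lie below 0, with Psmc3ip and Psmc5 lowest and Psmd10 above 0 in each co-culture.

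The co-cultures were also compared with each other. Between MiaTAM and MDM co-cultures, 23 of 43 members were higher and 1 lower in MiaTAM, where 19.8% and 21.1% of all genes were called, 41% in either direction, and the median member differed by 0.16. Between MiaTAM and BxTAM co-cultures, 11 were higher and 3 lower in MiaTAM, beside 11% and 13.3% of all genes (24.2% in either direction), with a median of 0.098. Between BxTAM and MDM co-cultures, 13 were higher and 2 lower in BxTAM, beside 17.4% and 17.3% of all genes (34.7% in either direction), with a median of 0.064. Members without overlap between libraries numbered 24, 22 and 21 in these 3 comparisons in that order, beside 49%, 38.6% and 47.9% of all genes. For BxTAM against MDM, the shares of members called in either direction and without overlap were close to those of all genes. In order of group means, cells alone were highest for 38 members and MDM co-cultures lowest for 26. In 19 members the order was cells alone, MiaTAM, BxTAM and MDM, from high to low.

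Some of these counts changed when 1 library was left out, which also leaves fewer libraries for the test of every gene. The 13 higher calls of BxTAM against MDM became 8 without MDM library 2, and its 2 lower calls became 1 without that library or without BxTAM library 2 or 3. Over all genes, the 2153 higher calls of BxTAM against MDM became 1716, and the 2138 lower calls became 1699, 1775 and 1723. For MiaTAM against BxTAM, the 11 higher calls became 6 without BxTAM library 2 and 7 without BxTAM library 3, while 1356 over all genes became 816 and 857. The 3 lower calls of members there became 5 without MiaTAM library 1 and 1 without MiaTAM library 2, while 1641 over all genes became 1707 and 1095. The 1 lower call of MiaTAM against MDM became 2 without MDM library 3 and 4 without MiaTAM library 1. Over all genes, these lower calls went from 2609 to 2412 and 2504.

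**Figure D2:**
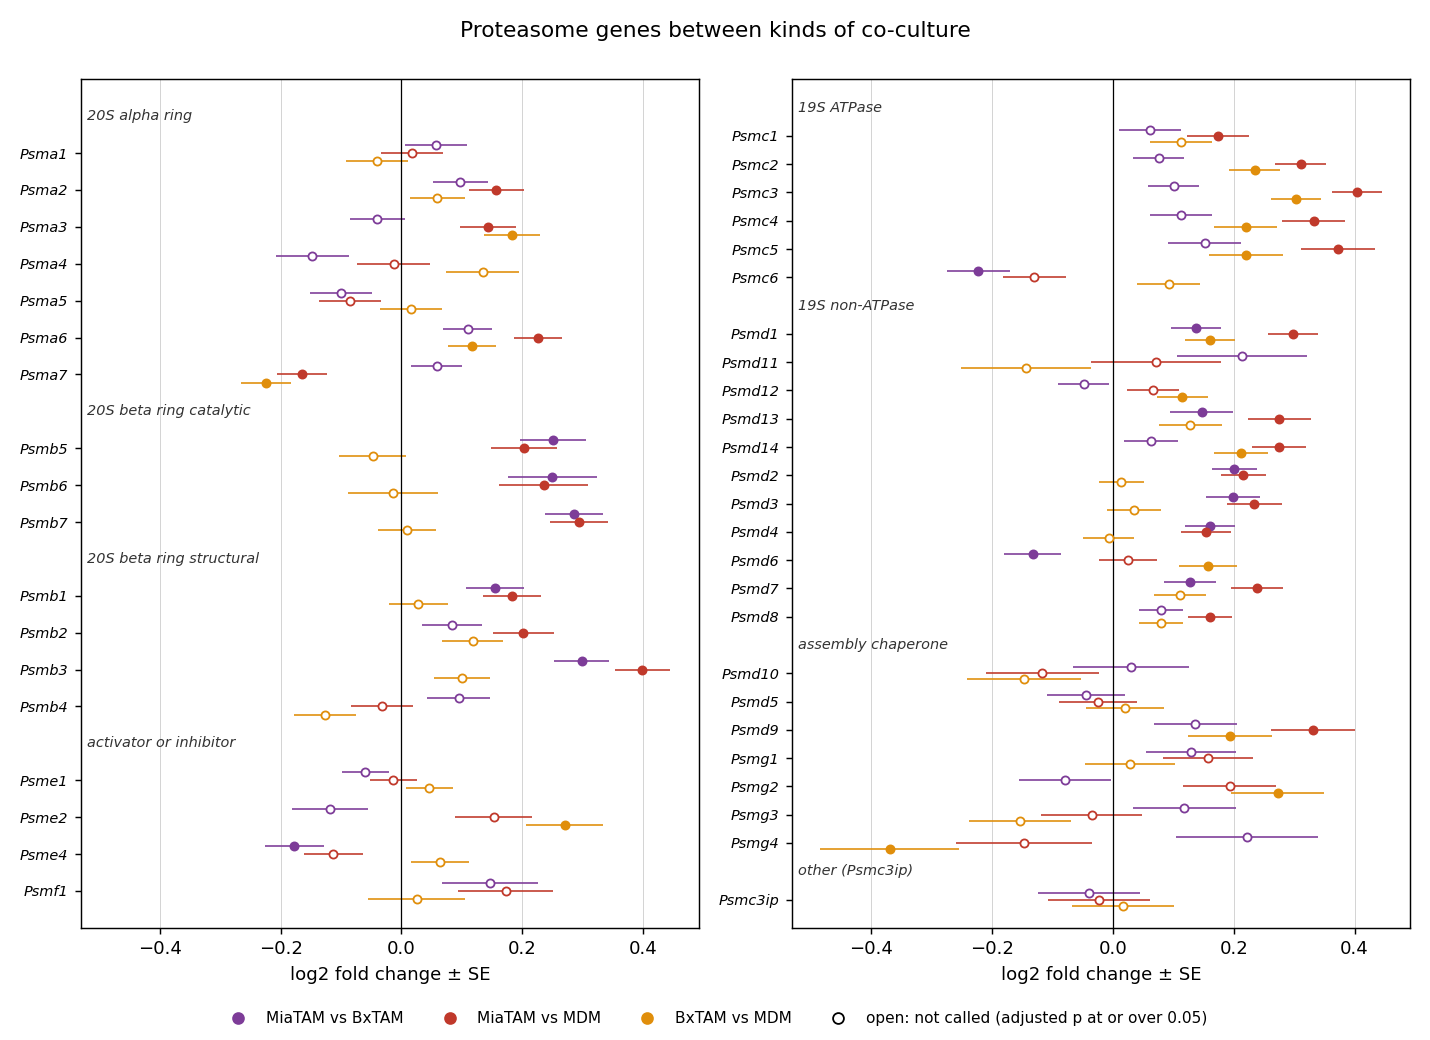
Log2 fold change of each member between co-cultures, as points with lines of 1 SE from edgeR, by role (n = 3 libraries each), with open points for members not called. MiaTAM against MDM lies mostly above 0, and the catalytic beta genes lie above 0 in both comparisons that involve MiaTAM.

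Levels were compared between genes by FPKM, which the authors scaled by gene length. The structural beta genes had a median of 152 FPKM in MiaTAM, 139 FPKM in BxTAM and 132 FPKM in MDM co-cultures, against 175 FPKM in cells alone. The alpha ring genes followed with 118, 113 and 110.0 FPKM in MiaTAM, BxTAM and MDM co-cultures and 158 FPKM in cells alone. In cells alone, medians were 104 FPKM for the non-ATPase cap genes, 89.2 FPKM for the ATPases, 79.6 FPKM for the catalytic beta genes, 36.6 FPKM for activators and the inhibitor and 22.3 FPKM for assembly chaperones. By median, the assembly chaperones stood lowest. Within the core, cells alone ranged between 29.8 FPKM for Psma3 and 240.1 FPKM for Psmb4. Psma3 is uncertain, because the near-identical LOC100361067 can take its reads and had 54.7 CPM (71.9 FPKM) in cells alone. In CPM, which is not scaled by gene length, Psma3 had 113 and Psma7 had 128 in cells alone, against 29.8 and 140 FPKM. How far shared reads or the gene length used lower the FPKM of Psma3 was not tested.

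**Figure D3:**
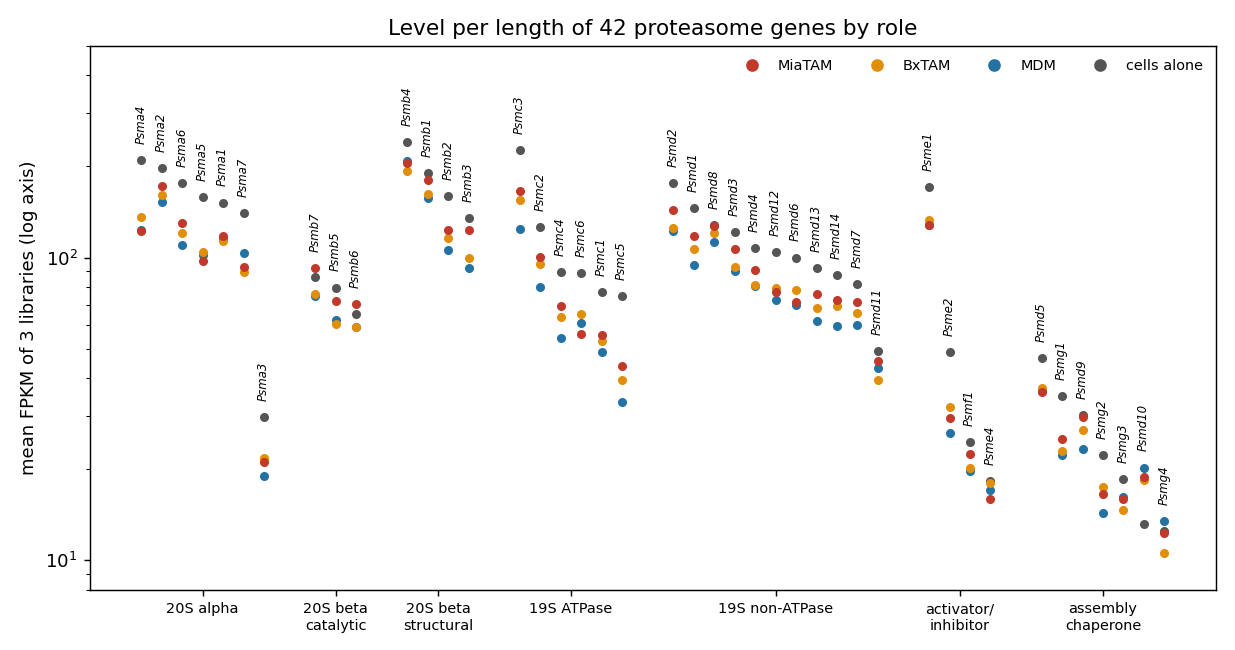
Mean FPKM per gene on a log axis, by role and group, for the 42 proteasome genes. The core and cap genes sit mostly above the assembly chaperones, whose median is 22.3 FPKM in cells alone, and Psma3, at 29.8 FPKM there, lies below the other alpha ring genes.

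The 7 alpha ring genes, which form the gated outer rings of the core, were all called lower in each co-culture. The share of all tested genes called lower was 33.7% in MiaTAM, 30.9% in BxTAM and 33.1% in MDM. Median log2 changes of the alpha ring genes were -0.49 in MiaTAM, -0.54 in BxTAM and -0.60 in MDM. Their summed level was 832 ± 31.6 CPM in MiaTAM, 828 ± 20.9 CPM in BxTAM and 805 ± 4.37 CPM in MDM co-cultures, against 1170.4 ± 18.02 CPM in cells alone (SD, n = 3 each). Psma4 had 156, 123 and 139.6 CPM in MiaTAM co-cultures, 156, 154 and 155 CPM in BxTAM co-cultures and 148, 137 and 138 CPM in MDM co-cultures, against 229, 231 and 249 CPM in cells alone. No co-culture library reached the lowest library of cells alone, while MiaTAM library 1 lay at the level of the BxTAM libraries and MiaTAM library 2 lay under all others. The log2 change was -0.76 ± 0.059 in MiaTAM, -0.61 ± 0.059 in BxTAM and -0.74 ± 0.059 in MDM, with edgeR adjusted p of 6.29e-10, 1.8e-08 and 7.7e-10 in that order. Its difference between MiaTAM and MDM, -0.013 (interval -0.14 to 0.11), did not pass.

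Psma7 was 1 of 3 members with the order cells alone, MDM, MiaTAM and BxTAM, from high to low, while MDM was lowest for 26 members. It had 85.6, 85.3 and 86.5 CPM in MiaTAM co-cultures, 81.5, 83.6 and 82.1 CPM in BxTAM co-cultures and 97.4, 98.6 and 92.8 CPM in MDM co-cultures, against 123, 132 and 129 CPM in cells alone. The MDM libraries stood between the TAM libraries and cells alone with no overlap. Psma7 changed by -0.58 ± 0.041 in MiaTAM, -0.64 ± 0.041 in BxTAM and -0.42 ± 0.040 in MDM against cells alone. It was the only member called lower in MiaTAM than in MDM co-cultures, with a log2 difference of -0.17 ± 0.041 (edgeR adjusted p = 0.00309), and it was lower in BxTAM than in MDM, with a difference of -0.22 ± 0.041 (edgeR adjusted p = 0.00028). The other alpha genes ran between -0.19 for Psma2 and -0.69 for Psma5 in MiaTAM, and between -0.34 for Psma2 and -0.65 for Psma6 in MDM. Against MDM co-cultures, Psma2, Psma3 and Psma6 were higher in MiaTAM, by 0.16, 0.14 and 0.23. The calls of Psma2 and Psma3 were lost without MiaTAM library 3 (edgeR adjusted p of 0.0573 and 0.128, with ranges over 20 alternatives of 0.00375 to 0.0573 and 0.00763 to 0.128), and that of Psma3 also without MDM library 3.

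The 3 catalytic beta genes of the constitutive core were higher in MiaTAM than in the other co-cultures. Against cells alone their median log2 changes were 0.11 in MiaTAM, -0.18 in BxTAM and -0.18 in MDM. Psmb5 encodes the chymotrypsin-like site, the main target of clinical proteasome inhibitors, Psmb6 the caspase-like site and Psmb7 the trypsin-like site. Against cells alone, 2 were lower in BxTAM and 2 in MDM co-cultures, beside 30.9% and 33.1% of all tested genes. In MiaTAM 1 was lower and 1 higher, close to the shares of all genes, 33.7% and 31.4%. All 3 were higher in MiaTAM than in MDM and than in BxTAM co-cultures, beside 19.8% and 11% of all genes. None was called between BxTAM and MDM, where 34.7% of all genes were called in either direction.

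Psmb5 had 60.0, 62.2 and 66.6 CPM in MiaTAM co-cultures, 56.4, 51.7 and 50.5 CPM in BxTAM co-cultures and 54.2, 54.6 and 55.2 CPM in MDM co-cultures, against 66.2, 68.7 and 72.0 CPM in cells alone. MiaTAM library 3 overlapped the cells alone, the BxTAM and MDM libraries overlapped each other, and both stood below the MiaTAM libraries. Psmb5 changed by -0.13 ± 0.053 in MiaTAM, -0.38 ± 0.054 in BxTAM and -0.34 ± 0.054 in MDM, with edgeR adjusted p of 0.0349, 3.58e-06 and 1.55e-05 in that order. The MiaTAM call was lost in 9 of 20 alternatives (edgeR, limma or DESeq2 adjusted p from 0.0127 to 0.343), among them leaving out MiaTAM library 1 or 2 or library 2 or 3 of cells alone, which gave changes between -0.12 and -0.09. MiaTAM stood 0.20 ± 0.054 above MDM (edgeR adjusted p = 0.00507) and 0.25 ± 0.054 above BxTAM (edgeR adjusted p = 0.00255).

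Psmb6 had 49.6, 55.5 and 45.9 CPM in MiaTAM co-cultures, 46.5, 43.0 and 37.5 CPM in BxTAM co-cultures and 41.8, 42.7 and 43.6 CPM in MDM co-cultures, against 46.8, 47.9 and 44.4 CPM in cells alone. The libraries of cells alone overlapped both TAM groups and lay just above the MDM libraries. MiaTAM libraries 1 and 2 were the highest of all, while MiaTAM library 3 lay under BxTAM library 1 and under libraries 1 and 2 of cells alone. No change of Psmb6 against cells alone passed the test, with values of 0.12 in MiaTAM (interval -0.035 to 0.27), -0.13 in BxTAM (interval -0.29 to 0.022) and -0.12 in MDM (interval -0.27 to 0.035). With upper-quartile scaling the MiaTAM value was 0.19 and passed (edgeR adjusted p = 0.0287, range over 20 alternatives 0.0287 to 0.623), and without BxTAM library 1 the BxTAM value was -0.21 and passed. MiaTAM stood 0.24 ± 0.073 above MDM (edgeR adjusted p = 0.0144, range over 20 alternatives 0.00548 to 0.0909) and 0.25 ± 0.074 above BxTAM (edgeR adjusted p = 0.0183, range 0.00633 to 0.12). Without MiaTAM library 2 neither call passed, at 0.16 against MDM and 0.18 against BxTAM, and without BxTAM library 3 the difference from BxTAM was 0.17 and did not pass.

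Psmb7 had 173, 193 and 172 CPM in MiaTAM co-cultures, 153, 137 and 150.1 CPM in BxTAM co-cultures and 142, 149 and 146 CPM in MDM co-cultures, against 164, 166 and 167 CPM in cells alone. All MiaTAM libraries lay above the highest library of cells alone, and all BxTAM and MDM libraries lay below the lowest. It was higher in MiaTAM by 0.11 ± 0.048 (edgeR adjusted p = 0.0499), and lower in BxTAM and MDM, at -0.18 and -0.18 (edgeR adjusted p = 0.0036 and 0.00215). The rise in MiaTAM was lost in 10 of 20 alternatives, with values from 0.055 to 0.18 and edgeR, limma or DESeq2 adjusted p from 0.00213 to 0.296, the weakest without MiaTAM library 2. The differences from the other co-cultures were 0.29 ± 0.048 against MDM (edgeR adjusted p = 5.53e-05) and 0.29 ± 0.048 against BxTAM (edgeR adjusted p = 0.000346). The gene overlaps Nek6, and no source used here gives the strand setting of the counts, so reads of the pair may be mixed. Nek6 had 156, 165 and 165 CPM in MiaTAM co-cultures, 99.5, 173 and 165 CPM in BxTAM co-cultures and 120.5, 129 and 114 CPM in MDM co-cultures, against 169, 171 and 173 CPM in cells alone.

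**Figure D4:**
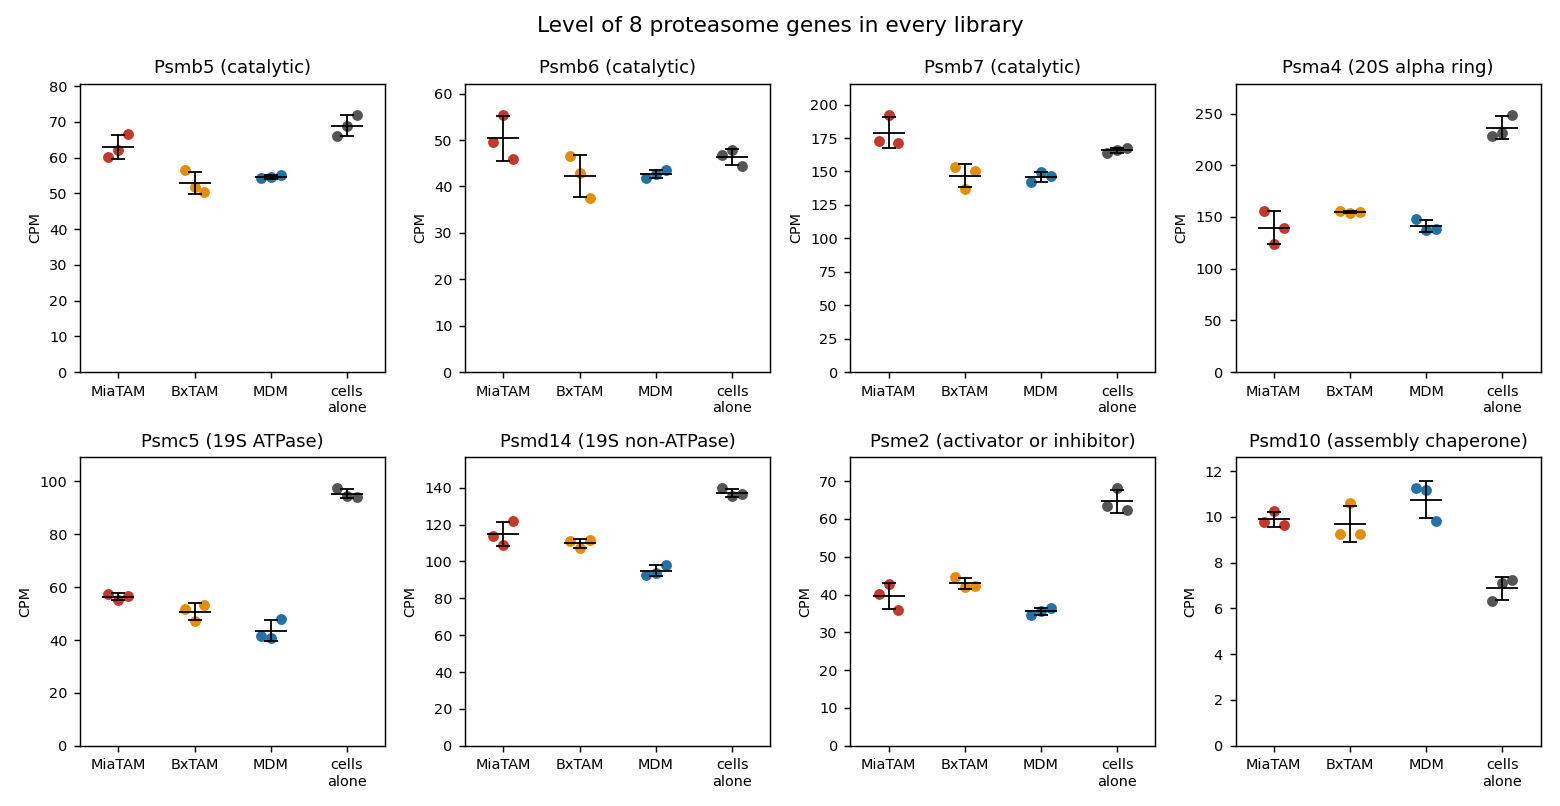
CPM in each library for 8 members, with the group mean as a horizontal line and its SD as an error bar (n = 3 each). Psmb5, Psmb6 and Psmb7 are higher in MiaTAM than in the other co-cultures, Psma4, Psmc5, Psmd14 and Psme2 are highest in cells alone, and Psmd10 is lowest in cells alone.

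Promoter sequences from RefSeq, build GRCr8, were found for 39 of 43 members, each with 250 bases before and 50 after the gene's start. They are shown for the catalytic beta genes, which differed between co-cultures, for Psmc5, the proteasome gene with the largest fall, and for Psmd10, higher in each co-culture. Capitals mark TGACNNNGC, the core of the antioxidant-type element that NFE2L1 binds, and CCAAT, the NF-Y box, on either strand. Positions are chr15:32047330-32047629 (minus strand) for Psmb5, chr10:55737638-55737937 (plus) for Psmb6, chr3:42827421-42827720 (minus) for Psmb7, chr10:91687303-91687602 (plus) for Psmc5 and chrX:109453556-109453855 (minus) for Psmd10.
Psmb5: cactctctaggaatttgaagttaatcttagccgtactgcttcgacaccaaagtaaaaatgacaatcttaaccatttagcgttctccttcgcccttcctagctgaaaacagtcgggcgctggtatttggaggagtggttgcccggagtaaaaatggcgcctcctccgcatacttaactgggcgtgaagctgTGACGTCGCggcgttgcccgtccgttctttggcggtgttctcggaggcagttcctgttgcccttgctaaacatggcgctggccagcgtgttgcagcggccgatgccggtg
Psmb6: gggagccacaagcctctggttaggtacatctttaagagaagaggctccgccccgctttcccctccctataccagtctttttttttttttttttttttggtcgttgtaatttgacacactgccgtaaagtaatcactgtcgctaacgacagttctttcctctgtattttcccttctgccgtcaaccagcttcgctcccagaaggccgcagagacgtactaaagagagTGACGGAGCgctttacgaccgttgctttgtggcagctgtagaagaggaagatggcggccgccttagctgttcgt
Psmb7: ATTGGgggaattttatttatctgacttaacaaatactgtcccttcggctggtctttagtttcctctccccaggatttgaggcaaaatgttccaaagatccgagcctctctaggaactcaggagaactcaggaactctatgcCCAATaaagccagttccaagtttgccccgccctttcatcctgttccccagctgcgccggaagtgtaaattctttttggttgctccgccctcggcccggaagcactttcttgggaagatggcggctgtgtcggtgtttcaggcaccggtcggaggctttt
Psmc5: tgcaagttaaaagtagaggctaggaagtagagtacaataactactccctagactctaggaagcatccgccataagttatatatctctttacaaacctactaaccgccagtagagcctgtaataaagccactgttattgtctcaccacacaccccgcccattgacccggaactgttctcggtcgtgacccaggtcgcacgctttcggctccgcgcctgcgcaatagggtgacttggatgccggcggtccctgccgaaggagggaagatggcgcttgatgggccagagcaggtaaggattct
Psmd10: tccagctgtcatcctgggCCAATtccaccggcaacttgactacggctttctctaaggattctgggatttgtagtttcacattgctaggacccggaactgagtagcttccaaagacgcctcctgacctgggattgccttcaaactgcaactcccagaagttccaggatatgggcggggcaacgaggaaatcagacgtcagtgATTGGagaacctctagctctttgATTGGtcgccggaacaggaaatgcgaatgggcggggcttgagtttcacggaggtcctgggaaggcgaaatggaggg

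Psmb5 and Psmb6 each held 1 TGACNNNGC match and no CCAAT, Psmb7 held 2 CCAAT and Psmd10 held 3, and Psmc5 held neither. Among the member promoters, 8 of 39 (20.5%) held TGACNNNGC, beside 12.1% of 33465 promoters of the same length. These were Psma3, Psmb2, Psmb5, Psmb6, Psmd1, Psmd3, Psmd9 and Psme4. CCAAT was in 19 of 39 (48.7%), beside 37.5% of all promoters, and CACGTG in 4 of 39 (10.3%), beside 6.42%. The matches overlapped one another in 1 member promoter. A match describes the letters only. Whether the changes differed between members with and without a match was not tested.

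The 4 structural beta genes, which complete the inner rings without a proteolytic site, were lower in 3 cases in MiaTAM co-cultures and in all 4 in BxTAM and MDM. The shares of all tested genes called lower were 33.7% in MiaTAM, 30.9% in BxTAM and 33.1% in MDM. The medians of the 4 genes were -0.17, -0.36 and -0.38 in that order. Psmb3 had 105, 101 and 98.2 CPM in MiaTAM co-cultures, 83.4, 79.3 and 84.7 CPM in BxTAM co-cultures and 72.3, 79.2 and 79.2 CPM in MDM co-cultures, against 109.9, 112 and 109 CPM in cells alone. The MiaTAM libraries came close to cells alone, while no BxTAM or MDM library reached them. Psmb3 differed from MDM by 0.40 ± 0.046 in MiaTAM (edgeR adjusted p = 7.86e-07) and from BxTAM by 0.30 ± 0.045 (edgeR adjusted p = 0.000136). Against cells alone it changed by -0.12 ± 0.044 in MiaTAM, -0.42 ± 0.045 in BxTAM and -0.52 ± 0.045 in MDM. The MiaTAM call was lost in 6 of 20 alternatives (edgeR, limma or DESeq2 adjusted p from 0.0141 to 0.383), among them leaving out MiaTAM library 3 or library 1 or 2 of cells alone. Psmb1 changed by -0.22 in BxTAM and -0.25 in MDM, and its value in MiaTAM, -0.065 (interval -0.16 to 0.035), did not pass. Psmb2 changed by -0.37, -0.45 and -0.57 and Psmb4 by -0.21, -0.31 and -0.18, in MiaTAM, BxTAM and MDM.

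The 6 ATPases of the cap, which unfold substrates and open the core's gate, were all called lower in each co-culture, with medians of -0.45 in MiaTAM, -0.50 in BxTAM and -0.67 in MDM, and their summed level was 799.9 ± 10.4 CPM in MiaTAM, 779 ± 9.25 CPM in BxTAM and 673 ± 19.4 CPM in MDM co-cultures, against 1112 ± 25.0 CPM in cells alone (SD, n = 3 each). The share of all tested genes called lower than in cells alone was 33.7% in MiaTAM, 30.9% in BxTAM and 33.1% in MDM. Between co-cultures, 5 of 6 ATPases were higher in MiaTAM than in MDM and 4 of 6 higher in BxTAM than in MDM, beside 19.8% and 17.4% of all genes. Against BxTAM, 1 ATPase was lower in MiaTAM and 0 were higher, beside 13.3% and 11% of all genes.

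Psmc5 had 57.6, 55.0 and 56.7 CPM in MiaTAM co-cultures, 51.8, 47.1 and 53.4 CPM in BxTAM co-cultures and 41.6, 40.8 and 48.0 CPM in MDM co-cultures, against 97.4, 94.6 and 94.2 CPM in cells alone. Cells alone stood far above every co-culture library, and MDM held the lowest libraries. The log2 change was -0.76 ± 0.058 in MiaTAM, -0.91 ± 0.058 in BxTAM and -1.13 ± 0.059 in MDM, which are changes of -40.8%, -46.8% and -54.3%. It was higher in MiaTAM than in MDM by 0.37 ± 0.061 and in BxTAM than in MDM by 0.22 ± 0.061, where the libraries overlapped and the call was lost without MDM library 2 at 0.18 (edgeR adjusted p = 0.0554, range over 20 alternatives 0.000787 to 0.0554).

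Psmc3 had 261, 279.5 and 268 CPM in MiaTAM co-cultures, 253, 251 and 249.6 CPM in BxTAM co-cultures and 192, 203 and 215 CPM in MDM co-cultures, against 374, 359.8 and 365 CPM in cells alone. The 4 groups were fully separated in the order cells alone, MiaTAM, BxTAM and MDM, from high to low. It changed by -0.44 ± 0.041 in MiaTAM, -0.54 ± 0.041 in BxTAM and -0.85 ± 0.042 in MDM. It was higher than in MDM by 0.40 ± 0.042 in MiaTAM (edgeR adjusted p = 2.15e-07) and by 0.30 ± 0.042 in BxTAM (edgeR adjusted p = 1.1e-05). Psmc4 had 95.7, 93.1 and 105 CPM in MiaTAM co-cultures, 90.5, 87.7 and 93.2 CPM in BxTAM co-cultures and 75.0, 74.1 and 83.6 CPM in MDM co-cultures, against 129, 123 and 126 CPM in cells alone. Its TAM libraries overlapped each other and lay between MDM and cells alone. Psmc4 was higher than in MDM by 0.33 ± 0.052 in MiaTAM and 0.22 ± 0.052 in BxTAM. Psmc2 was higher than in MDM by 0.31 in MiaTAM and 0.23 in BxTAM, and Psmc1 by 0.17 in MiaTAM, a call lost without MiaTAM library 1. Psmc6 was the only ATPase called lower in MiaTAM than in BxTAM, with a difference of -0.22 ± 0.052 (edgeR adjusted p = 0.00443).

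Of the 11 non-ATPase genes of the cap, which form its scaffold, ubiquitin receptors and deubiquitinating lid, 9 were lower in MiaTAM, 10 in BxTAM and 10 in MDM co-cultures, with medians of -0.26, -0.37 and -0.49. Among all tested genes, 33.7%, 30.9% and 33.1% were lower in these comparisons in that order. Against MDM, 8 of the 11 genes were higher in MiaTAM and 4 in BxTAM, beside 19.8% and 17.4% of all genes. The 4 were Psmd1, Psmd6, Psmd12 and Psmd14. The call of Psmd12 was lost in 6 of 20 alternatives, among them leaving out MDM library 2 or 3 or any BxTAM library (edgeR, limma or DESeq2 adjusted p from 0.0146 to 0.121). That of Psmd6 was lost without MDM library 2, at 0.15, or BxTAM library 1, at 0.14 (edgeR, limma or DESeq2 adjusted p over 20 alternatives from 0.00279 to 0.0564). Between the TAM co-cultures, 6 of the 11 were higher and 1 lower in MiaTAM, beside 11% and 13.3% of all genes. Psmd14, the metalloprotease that removes ubiquitin chains at the cap, had 114, 109 and 122 CPM in MiaTAM co-cultures, 111, 107 and 112 CPM in BxTAM co-cultures and 92.5, 93.9 and 98.2 CPM in MDM co-cultures, against 139.7, 135 and 137 CPM in cells alone. Cells alone were highest and MDM lowest, without overlap, and the TAM libraries overlapped each other. It changed by -0.26 ± 0.043, -0.32 ± 0.044 and -0.53 ± 0.044 in MiaTAM, BxTAM and MDM, and exceeded MDM by 0.28 ± 0.044 in MiaTAM and 0.21 ± 0.044 in BxTAM.

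Psmd4, a ubiquitin receptor, had 129, 127 and 126 CPM in MiaTAM co-cultures, 117, 109 and 115 CPM in BxTAM co-cultures and 111, 114 and 119 CPM in MDM co-cultures, against 149, 145 and 156 CPM in cells alone. The MiaTAM libraries lay below cells alone and above the other co-cultures, which overlapped. Its changes were -0.24 ± 0.041, -0.40 ± 0.042 and -0.39 ± 0.042 in MiaTAM, BxTAM and MDM, and MiaTAM exceeded MDM by 0.15 and BxTAM by 0.16, the second call being lost without BxTAM library 2. The 6 that were higher in MiaTAM than in BxTAM were Psmd1, Psmd2, Psmd3, Psmd4, Psmd7 and Psmd13, between 0.13 for Psmd7 and 0.20 for Psmd2. The call was lost in 3 of 20 alternatives for Psmd1, 6 for Psmd7 and 8 for Psmd13, mostly on leaving out 1 of the TAM libraries. The scaffold genes Psmd1 and Psmd2 changed by -0.30 and -0.28 in MiaTAM, -0.43 and -0.48 in BxTAM and -0.59 and -0.49 in MDM. The lid gene Psmd6 was the only non-ATPase lower in MiaTAM than in BxTAM, with a difference of -0.13, a call that held in 3 of 20 alternatives (edgeR, limma or DESeq2 adjusted p from 0.0176 to 0.249). Psmd8, another lid gene, changed by -0.16 in MDM, and its values in BxTAM, -0.078 (interval -0.15 to -0.0025), and in MiaTAM, 0.0023 (interval -0.073 to 0.078), did not pass. With limma on FPKM the BxTAM value was -0.089 or -0.090, by pseudocount, and passed (limma adjusted p = 0.0305 and 0.0324, range over 20 alternatives 0.0305 to 0.612).

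Psmd11, a lid subunit that bridges lid and core, was singled out after its values were seen because library 1 stood apart in several groups. It had 214, 163 and 164 CPM in MiaTAM co-cultures, 149.5, 154 and 163 CPM in BxTAM co-cultures and 204, 156 and 156 CPM in MDM co-cultures, against 227, 172 and 179 CPM in cells alone. Library 1 was the highest in MiaTAM, MDM and cells alone but not in BxTAM, and the BxTAM libraries overlapped MDM but neither MiaTAM nor cells alone. Psmd11 changed by -0.31 ± 0.11 in BxTAM (edgeR adjusted p = 0.0176), a call lost in 5 of 20 alternatives (edgeR, limma or DESeq2 adjusted p from 0.000347 to 0.188), among them leaving out library 1 of cells alone, which gave -0.16, or BxTAM library 1, which gave -0.28. The values were -0.093 in MiaTAM (interval -0.32 to 0.13) and -0.16 in MDM (interval -0.39 to 0.058), and neither passed. Without MDM library 1, the MDM value was -0.30 and passed (edgeR adjusted p = 0.0166, range over 20 alternatives 0.0166 to 0.857).

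**Figure D5:**
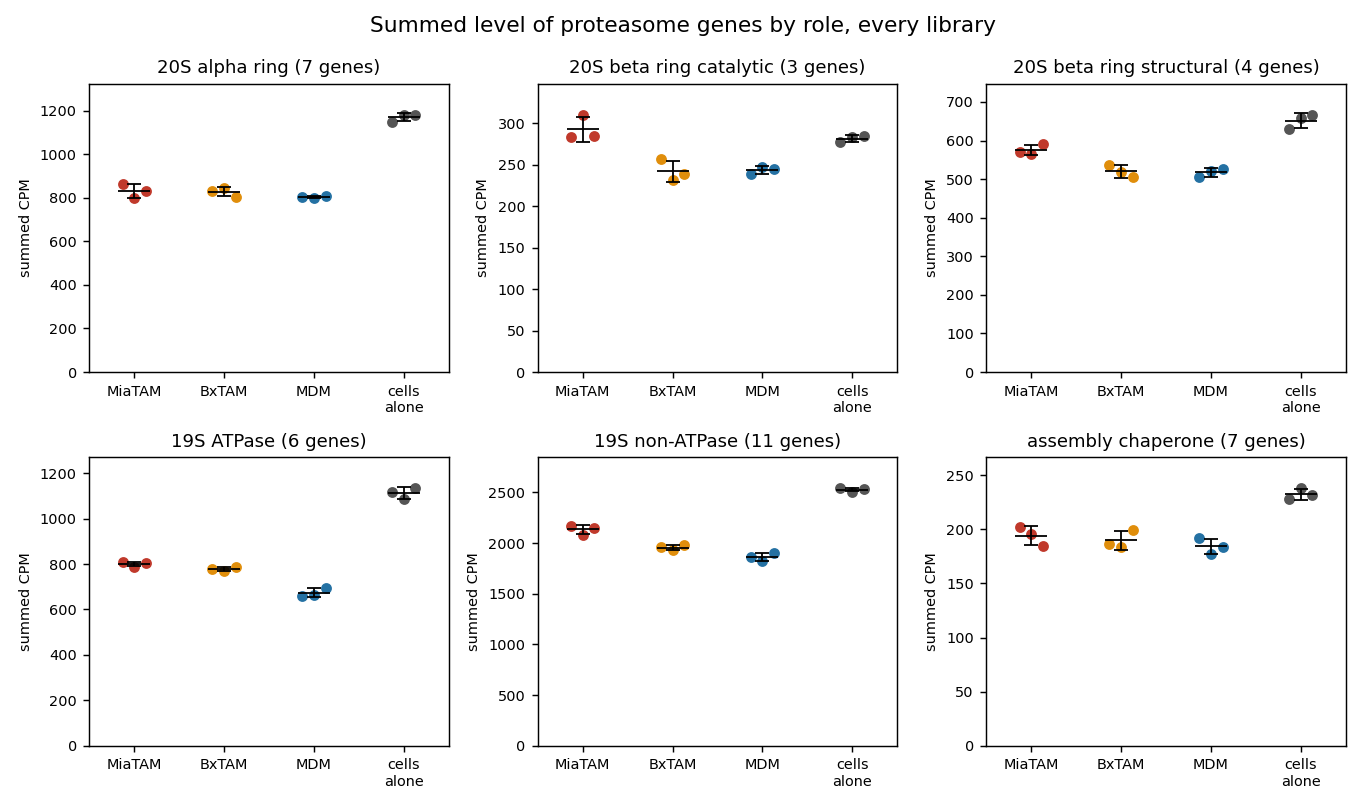
Summed CPM of the members of each role in each library, by group, with the mean as a horizontal line and its SD as an error bar (n = 3 each), for the 6 roles shown. Cells alone have the highest mean for each role shown but the catalytic beta genes, where MiaTAM reaches 292 CPM against 281 CPM in cells alone. Psmb7, whose reads may be mixed with those of Nek6, has 179 and 166 CPM of these sums.

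The activators and the inhibitor bind the core in place of the ATPase cap. Of these 4 genes, 3 were lower in each co-culture, beside 33.7%, 30.9% and 33.1% of all tested genes in MiaTAM, BxTAM and MDM. Psme1 and Psme2, the interferon-inducible pair that forms one activator ring, are neighbours in Rnor_6.0 (Psme1 at chromosome 15, 34256071 to 34258947 and Psme2 at chromosome 15, 34265557 to 34269851). Psme2 had 40.2, 42.7 and 35.9 CPM in MiaTAM co-cultures, 44.5, 41.9 and 42.4 CPM in BxTAM co-cultures and 34.6, 35.6 and 36.5 CPM in MDM co-cultures, against 63.4, 68.1 and 62.3 CPM in cells alone. Cells alone stood above all co-culture libraries, and the MDM libraries lay below the BxTAM libraries and overlapped MiaTAM library 3. It changed by -0.71 ± 0.061 in MiaTAM, -0.59 ± 0.061 in BxTAM and -0.86 ± 0.062 in MDM, and was higher in BxTAM than in MDM by 0.27 ± 0.064 (edgeR adjusted p = 0.00243). Psme1 had 128, 129.6 and 126 CPM in MiaTAM co-cultures, 139, 135 and 127 CPM in BxTAM co-cultures and 128, 131 and 129.8 CPM in MDM co-cultures, against 172, 169.7 and 168 CPM in cells alone. Its co-culture libraries overlapped each other and lay under cells alone. It changed by -0.41, -0.35 and -0.39 in MiaTAM, BxTAM and MDM. Psme3 is not analysed here.

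Psme4, the activator linked to histone breakdown, had 128, 109 and 121 CPM in MiaTAM co-cultures, 136, 133 and 137 CPM in BxTAM co-cultures and 134, 125 and 129 CPM in MDM co-cultures, against 136, 138 and 134 CPM in cells alone. The BxTAM and MDM libraries overlapped cells alone, and the MiaTAM libraries lay below cells alone and overlapped MDM. It changed by -0.19 ± 0.048 in MiaTAM (edgeR adjusted p = 0.00222), while -0.0083 in BxTAM (interval -0.11 to 0.092) and -0.072 in MDM (interval -0.17 to 0.028) did not pass. Psme4 was lower in MiaTAM than in BxTAM, with a difference of -0.18 ± 0.048 (edgeR adjusted p = 0.0118), and without MiaTAM library 2 this was -0.12 and did not pass (edgeR adjusted p = 0.0681, range over 20 alternatives 0.00178 to 0.0681). Psmf1, an inhibitor of the core, had 28.0, 33.9 and 31.3 CPM in MiaTAM co-cultures, 29.6, 27.1 and 27.2 CPM in BxTAM co-cultures and 26.1, 29.9 and 26.6 CPM in MDM co-cultures, against 35.01, 30.9 and 35.3 CPM in cells alone. MiaTAM overlapped cells alone, and the BxTAM and MDM libraries lay below them. Psmf1 changed by -0.27 in BxTAM and -0.29 in MDM, and its value in MiaTAM was -0.12 (interval -0.28 to 0.042).

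The 7 assembly chaperones act on precursors and are not part of the finished particle. Of all tested genes, 65.1%, 60.9% and 65.1% were called in either direction in MiaTAM, BxTAM and MDM against cells alone. Of the 7 chaperones, 4 were lower and 1 was higher than in cells alone in each co-culture. The higher one was Psmd10, known as gankyrin, a chaperone of the ATPase ring that also binds the retinoblastoma protein, and its values are given because it was the 1 member called higher in each co-culture. Psmd10 had 9.75, 10.2 and 9.65 CPM in MiaTAM co-cultures, 9.23, 10.6 and 9.23 CPM in BxTAM co-cultures and 11.2, 11.2 and 9.80 CPM in MDM co-cultures, against 6.31, 7.09 and 7.24 CPM in cells alone. Every co-culture library lay above every library of cells alone, and the co-cultures overlapped each other. It rose by 0.52 ± 0.10 in MiaTAM (edgeR adjusted p = 0.000132), 0.49 ± 0.10 in BxTAM (edgeR adjusted p = 0.000289) and 0.64 ± 0.098 in MDM (edgeR adjusted p = 1.03e-05).

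Psmg1, part of the chaperone pair that starts the alpha ring, had 24.5, 25.4 and 26.0 CPM in MiaTAM co-cultures, 22.5, 24.2 and 22.7 CPM in BxTAM co-cultures and 21.9, 21.0 and 25.0 CPM in MDM co-cultures, against 33.3, 37.2 and 33.9 CPM in cells alone. The co-cultures overlapped each other and lay under cells alone, and Psmg1 changed by -0.46, -0.59 and -0.62 in MiaTAM, BxTAM and MDM. Psmg2, its partner, had 21.5, 19.5 and 18.1 CPM in MiaTAM co-cultures, 20.1, 21.3 and 21.0 CPM in BxTAM co-cultures and 17.5, 18.1 and 16.1 CPM in MDM co-cultures, against 27.5, 25.2 and 26.4 CPM in cells alone. Cells alone were highest and BxTAM lay above MDM without overlap. Psmg2 was higher in BxTAM than in MDM by 0.27 ± 0.076 (edgeR adjusted p = 0.0088), a call lost without MDM library 3 at 0.22 (edgeR adjusted p = 0.0541, the highest of 20 alternatives). Psmg4 had 6.73, 7.83 and 6.78 CPM in MiaTAM co-cultures, 6.76, 5.64 and 5.82 CPM in BxTAM co-cultures and 7.56, 8.06 and 7.93 CPM in MDM co-cultures, against 6.37, 6.94 and 8.15 CPM in cells alone. Cells alone overlapped every co-culture, and no change against them passed, with -0.013 in MiaTAM (interval -0.25 to 0.22), -0.23 in BxTAM (interval -0.48 to 0.0089) and 0.13 in MDM (interval -0.098 to 0.37). The BxTAM value passed in 4 of 20 alternatives, which were limma with either pseudocount and leaving out library 1 of cells alone or BxTAM library 1, with values of -0.22, -0.24, -0.30 and -0.32 in that order (limma or edgeR, limma or DESeq2 adjusted p over 20 alternatives from 0.0367 to 0.418). It was lower in BxTAM than in MDM, with a difference of -0.37 ± 0.12 (edgeR adjusted p = 0.0168), and without MDM library 2, BxTAM library 2 or BxTAM library 3 this was -0.35, -0.32 or -0.34 and did not pass. Psmd5 changed by -0.36, -0.32 and -0.34 in MiaTAM, BxTAM and MDM. Psmd9 changed by -0.34 in MDM and was higher than in MDM by 0.33 in MiaTAM and 0.19 in BxTAM, the second call being lost without MDM library 1 or 2 or BxTAM library 1 or 3. Against cells alone, Psmd9 did not pass in MiaTAM, at -0.0063, or in BxTAM, at -0.14 (edgeR adjusted p = 0.943 and 0.0789). The BxTAM value of Psmd9 passed in 2 of 20 alternatives. Psmg3 changed by -0.21 in MiaTAM and -0.33 in BxTAM, the MiaTAM call of Psmg3 being lost in 8 of 20 alternatives. Its MDM value, -0.18, did not pass (edgeR adjusted p = 0.0645) but passed in 3 of 20 alternatives.

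Psmc3ip, the meiotic cofactor, had the largest change of any member against cells alone in each co-culture. It had 14.1, 11.6 and 12.5 CPM in MiaTAM co-cultures, 12.5, 13.6 and 13.4 CPM in BxTAM co-cultures and 13.1, 13.5 and 12.5 CPM in MDM co-cultures, against 34.5, 33.8 and 31.4 CPM in cells alone. Cells alone stood far above all co-cultures, which overlapped each other, and the changes were -1.38 ± 0.076 in MiaTAM, -1.34 ± 0.075 in BxTAM and -1.35 ± 0.075 in MDM. The gene overlaps Mlx, so reads of the pair may be mixed. Without Psmc3ip, 33, 36 and 36 of 42 proteasome genes were lower in MiaTAM, BxTAM and MDM, beside 33.7%, 30.9% and 33.1% of all tested genes.

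The immunoproteasome genes, which replace the catalytic beta subunits in immune cells or after interferon, are not members but share their sites. Of 3, 2 were lower in each co-culture and 0 higher, beside 33.7%, 30.9% and 33.1% of all tested genes lower in MiaTAM, BxTAM and MDM. Psmb10 had 0.991, 1.39 and 1.36 CPM in MiaTAM co-cultures, 1.82, 2.24 and 1.10 CPM in BxTAM co-cultures and 1.96, 1.99 and 1.49 CPM in MDM co-cultures, against 7.22, 8.57 and 6.18 CPM in cells alone. It was low everywhere and lowest in the co-cultures, without overlap with cells alone, and it changed by -2.56 ± 0.21, -2.09 ± 0.19 and -2.03 ± 0.19 in MiaTAM, BxTAM and MDM. Psmb8 changed by -0.61, -0.27 and -0.40. Psmb9 did not pass, with -0.020 in MiaTAM (interval -0.16 to 0.12), -0.035 in BxTAM (interval -0.17 to 0.10) and -0.11 in MDM (interval -0.25 to 0.027).

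Among 18 other proteasome partners (receptors, shuttles and deubiquitinases), 5 were lower and 4 higher in MiaTAM, 9 lower and 3 higher in BxTAM, and 9 lower and 1 higher in MDM than in cells alone, with median log2 changes of 0.022, -0.12 and -0.13. Of all tested genes, 33.7% were lower and 31.4% higher in MiaTAM, 30.9% and 30% in BxTAM, and 33.1% and 32% in MDM. Usp14, a deubiquitinase of the cap, changed by -0.55, -0.54 and -0.55. Against MDM co-cultures, 9 partners were higher and 1 lower in MiaTAM and 3 higher and 0 lower in BxTAM, beside 19.8% and 21.1% of all genes in MiaTAM and 17.4% and 17.3% in BxTAM. Adrm1, a ubiquitin receptor, was higher in MiaTAM than in MDM by 0.38 ± 0.062 and than in BxTAM by 0.34 ± 0.062. Pomp, the chaperone of the beta ring, was higher in MiaTAM than in BxTAM by 0.26 ± 0.060, and its reads may be shared with LOC100911238.

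Of 21 tested genes of ubiquitin activation and conjugation, 7 were lower and 8 higher in MiaTAM, 7 lower and 5 higher in BxTAM, and 9 lower and 4 higher in MDM, with median log2 changes of 0.0064, 0.038 and -0.076 in MiaTAM, BxTAM and MDM. The shares of all tested genes were 33.7% lower and 31.4% higher in MiaTAM, 30.9% and 30% in BxTAM, and 33.1% and 32% in MDM. Ube2c, the conjugating enzyme of mitotic exit, changed by -1.75 ± 0.074 in MiaTAM, -1.88 ± 0.075 in BxTAM and -0.67 ± 0.067 in MDM, and Ube2h rose by 0.71, 0.76 and 0.75. Of 10 genes of the VCP segregase, which extracts ubiquitinated proteins for the proteasome, 6 were lower in each co-culture and 2, 0 and 0 higher in MiaTAM, BxTAM and MDM, with median log2 changes of -0.16, -0.17 and -0.15 in that order. Vcp itself changed by -0.23, -0.21 and -0.43.

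Of 11 genes around NFE2L1, the activator of proteasome genes, 7 were higher and 3 lower in MiaTAM, 7 higher and 2 lower in BxTAM, and 5 higher and 1 lower in MDM, with median log2 changes of 0.21, 0.23 and 0.095 in MiaTAM, BxTAM and MDM. Of all tested genes, 31.4%, 30% and 32% were higher and 33.7%, 30.9% and 33.1% lower in these comparisons. The values ran from -0.68 to 0.40 in MiaTAM, -0.81 to 0.58 in BxTAM and -0.49 to 0.64 in MDM. The gene with the lowest value in MiaTAM and BxTAM is also counted among the proteasome partners above. Nfe2l1 itself rose by 0.12 in MiaTAM and 0.23 in BxTAM, and in MDM it was 0.023 (interval -0.063 to 0.11), which did not pass. Nfe2l2, its relative in the oxidative stress response, changed by -0.55, -0.19 and -0.49. Of 14 autophagy genes, the other main route of protein breakdown, 8 were higher and 2 lower in MiaTAM, 8 higher and 1 lower in BxTAM, and 7 higher and 1 lower in MDM, beside those same shares and with median log2 changes of 0.20, 0.19 and 0.14 in MiaTAM, BxTAM and MDM. Gabarapl1, which coats autophagosomes, rose by 1.04 ± 0.041 in MiaTAM, 1.10 ± 0.041 in BxTAM and 0.86 ± 0.041 in MDM. The receptor Sqstm1 rose by 0.15, 0.22 and 0.14, and Becn1, which starts autophagosome formation, changed by -0.81, -0.82 and -0.94.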

How the data were processed

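Messenger RNA of 12 libraries was measured in 4 groups of 3, taken from the sample labels. Per the labels' protocols, a stranded kit was used. The submitters' processing notes list HISAT2, StringTie 1.3.0, CASAVA and the build Rnor_6.0. No source used here gives the counting tool or strand setting. The authors deposited raw counts per gene, whole numbers without normalization, and FPKM values that the authors scaled by gene length and library size. The counts were tested here with edgeR 4.0.16 (R 4.3.3). filterByExpr left 12360 genes, libraries were scaled by TMM, and 1 quasi-likelihood fit held all 12 libraries with 1 mean per group. Values are log2 fold changes ± standard error, taken as the change over the square root of F, with unadjusted 95% intervals and Benjamini-Hochberg adjusted p over all tested genes, 3 libraries against 3. Changes of named members that were not called against cells alone are given with their interval or adjusted p. No libraries appeared to be deposited in duplicate. The script was tested on simulated data. Promoters came from RefSeq GRCr8. Alternatives were other size factors, no count filter, a replicate block, fits on 6 libraries, limma 3.58.1 on log2(FPKM + 1) and log2(FPKM + 0.1), DESeq2 1.42.0, and leaving out each library.

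The members and lists were chosen with earlier results of these data known, so no count is independent support. Per-library values were given for the 4 called members with the largest change in each comparison and for a set always named, and the named genes of each further list are among up to 4 called members with the smallest p per list and a set always named. A few genes of these lists are not reported here.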

Additional observations from a re-analysis of the deposited data

Results flagged for a closer look

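Psmb7, which encodes the trypsin-like site, was called in opposite directions against cells alone, higher in MiaTAM and lower in BxTAM and MDM co-cultures. The differences between co-cultures were tested directly in edgeR and were 0.29 on the log2 scale for MiaTAM against MDM and 0.29 for MiaTAM against BxTAM (0.2943 and 0.2851 before rounding). Both kept their call in the 20 alternatives tried, while the higher call in MiaTAM against cells alone was lost in 10 of them. Reads of Psmb7 may be mixed with those of Nek6. Nek6 was itself higher in MiaTAM than in MDM, by 0.42 (edgeR adjusted p = 0.00717), and was not called between MiaTAM and BxTAM.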

How the results depend on the processing

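Counts and medians of members against cells alone kept their direction under 20 alternatives. With upper-quartile factors the median log2 changes were -0.22 in MiaTAM, -0.33 in BxTAM and -0.43 in MDM co-cultures against cells alone, and 0.12 for MiaTAM against BxTAM. The medians of all tested genes moved as well under these factors. They were 0.068, 0.057 and 0.053 in MiaTAM, BxTAM and MDM against cells alone, and 0.020 for MiaTAM against BxTAM. limma on log2(FPKM + 1) and log2(FPKM + 0.1) gave -0.51 and -0.52 for MDM against cells alone, and the second gave 0.18 for MiaTAM against MDM. Higher calls in MiaTAM against cells alone were 1 with limma and with the replicate block. Lower calls of MiaTAM against MDM were 2 with no filter and with the replicate block.

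Leaving out 1 library at a time, the MiaTAM comparison with cells alone gave 1 to 2 higher and 31 to 34 lower calls (median -0.30 to -0.27), BxTAM 1 and 37 to 38 (-0.40 to -0.36), and MDM 1 and 37 to 38 (-0.49 to -0.47). MiaTAM against MDM gave 23 to 25 higher and 1 to 4 lower (0.15 to 0.17), MiaTAM against BxTAM 6 to 12 and 1 to 5 (0.088 to 0.11), and BxTAM against MDM 8 to 15 and 1 to 3 (0.059 to 0.092).

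Signs turned in 40 values, none of them called in its own comparison. All members were followed against cells alone, but between co-cultures only called members and those always named. Most uncalled members were therefore not checked for a change of sign between co-cultures. Upper-quartile factors gave 0.047 for Psme4 in BxTAM and 0.068 for Psmd9, 0.061 for Psmg4 and 0.0092 for Psmb1 in MiaTAM against cells alone, and 0.0018 for Psme1 in MiaTAM against MDM. Psmd9 in MiaTAM was 0.0049 with DESeq2 size factors and in the Wald test and 0.0071 in the fit on 6 libraries, where Psmg4 was 0.00064. limma gave -0.0093 and -0.0094 for Psmd8 in MiaTAM, 0.0072 and 0.0073 for Psmd4 in BxTAM against MDM, and 0.00023 for Psme1 under both in MiaTAM against MDM. Leaving out 1 library gave -0.014 to 0.014 for Psme4 in BxTAM, and -0.040 to 0.041 for Psmd9, -0.084 to 0.10 for Psmg4, -0.012 to 0.031 for Psmd8 and -0.23 to 0.054 for Psmd11 in MiaTAM, all against cells alone. For BxTAM against MDM it gave -0.088 to 0.069 for Psmb6, -0.029 to 0.021 for Psmd4, -0.023 to 0.11 for Psmg1, -0.024 to 0.056 for Psmb7 and -0.018 to 0.087 for Psmf1. The cause was not tested. Same-numbered libraries of different groups did not deviate together (r from -0.13 to 0.089 over 18 pairs, 0 of them over 0.1), so the numbers were not taken as pairs.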
